A study of Mus musculus with 30 samples.

Results

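The colon transcriptome of estradiol-treated male mice was compared with that of vehicle-treated female mice on the same high-fat diet (HFD), gene by gene on the autosomes. The comparison took 12 of the 30 libraries of the series, 6 from HFD males given 17β-estradiol (E2 males) and 6 from HFD females given vehicle (HFD females). All animals were wild-type C57BL/6J mice, 5 to 6 weeks old at the start and fed the diet for 13 weeks. During the last 3 weeks they received 9 intraperitoneal injections of vehicle or of E2 at 0.5 mg/kg body weight. The females kept their ovaries, and the estrous cycle was not monitored. A further 3 groups of 6, HFD males given vehicle (HFD males) and females and males on a control diet (CD), are used only as reference points. Of 46078 genes in the count table, 41492 lie on chromosomes 1 to 19, 26752 of these had a count in the 12 libraries, and 14698 had enough counts to be tested.

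Estradiol acts mainly through 2 nuclear receptors, ERα and ERβ (genes Esr1 and Esr2), which bind DNA and change the transcription of nearby genes. In the mouse colon it reaches epithelial, stromal and immune cells, and local enzymes can inactivate it, among them the estrogen sulfotransferase Sult1e1. Differences between the sexes in gene expression are known to arise from circulating hormones, from early development and from the sex chromosomes.

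Total counts ranged from 10453115 to 12473865 in HFD females and from 9064697 to 17243712 in E2 males, so both groups were counted to a similar depth. The labels held in all 12 libraries: Xist, the RNA that silences an X chromosome, lay between 100.1 and 155 TPM (transcript abundance per length, scaled to the library total) in females and reached at most 0.0374 TPM in E2 males. Colon epithelium was present throughout, with the goblet cell mucin Muc2 at 1436 to 2513 TPM in females and 2075 to 3161 TPM in E2 males.

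Some of the female libraries also held genes of another tissue. The keratin Krt5, which marks the basal layer of stratified squamous epithelium such as that of the anal canal, was at 78.1, 0, 102, 63.0, 15.3 and 0 TPM in HFD females 1 to 6. It did not exceed 0.113 TPM in any E2 male, and among HFD males it stood at 19.2 TPM in animal 2 and 5.47 TPM in animal 4. The summed level of 25 squamous genes was 2043, 160, 2174, 2341, 463 and 101 TPM in the 6 females, against 87.5 to 168 TPM in the E2 males. The most abundant gene of the list was the keratin Krt13 in females and the widely expressed Perp in E2 males, in which 4 of the 25 genes had no count. All 8 squamous genes with enough counts to be tested were lower in E2 males at a raw p under 0.05 and an absolute log2 fold change over 0.4, as were 2.71% of all autosomal genes tested. Many results were therefore repeated against females 2 and 6 alone and with the squamous level as a covariate.

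**Figure D1:**
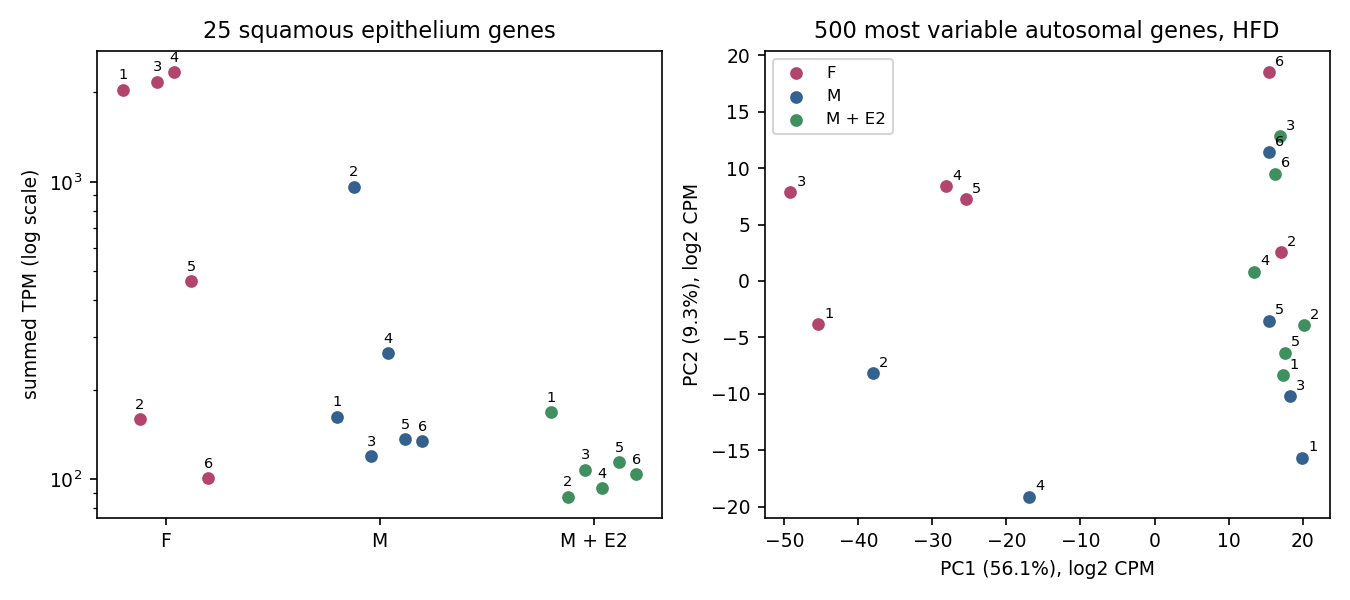
Left, summed TPM of 25 squamous epithelium genes on a log axis for each HFD animal (numbers are the animals), and right, the first 2 principal components of log2 CPM (counts scaled to the library total) over the 500 most variable autosomal genes. Females 1, 3, 4 and 5 and HFD males 2 and 4 lie apart on the first component, which holds 56.1% of the variance, while females 2 and 6 lie among the E2 males on it.

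At a raw p under 0.05 and an absolute log2 fold change over 0.4, 650 autosomal genes differed between E2 males and HFD females in edgeR's quasi-likelihood test (4.42% of those tested). Of these, 251 were higher (1.71%) and 399 lower (2.71%) in E2 males. A raw p under 0.05 was reached by 1065 genes, where 734.9 would be reached with no difference at all. After Benjamini-Hochberg adjustment 16 genes remained (0.109%), 11 higher (0.0748%) and 5 lower (0.034%). The adjustment ran over all 15182 genes tested, sex chromosomes included, and over the autosomal genes alone 7 of the 16 remained: C7, Ildr2, Dpep1, Iyd, Igfbp3, Nebl and Pi16. With the squamous level as a covariate, or against females 2 and 6 alone, C7 was the only one of the 16 past the adjusted threshold. Both alternatives limit what a lost call can show. Among the 12 libraries the squamous level was high in females only, and the second alternative leaves 2 females. What a lost call owes to the squamous tissue was not tested. The 2 groups did not overlap in 59 genes (0.401%). The study gives the same limits on p and on fold change and estimated an FDR, but does not state whether its p was adjusted. The limits on raw p are called the raw threshold here. In what follows, genes are counted as higher or lower at the raw threshold unless an adjustment is named, and every p given from edgeR is the adjusted one. For 12723 genes (86.6%) the difference was at most 0.4 with a 95% interval inside -1 to 1, which is called the female level below. Against females 2 and 6 alone the number past the raw threshold was 762, of which 65.7% were higher in E2 males, in place of 38.6%. With the squamous level as a covariate it was 696, of which 63.4% were higher. When 1 female was left out the share that was higher lay between 33.2% and 45.2%.

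The gene with the smallest p in the comparison was C7 (ENSMUSG00000079105, chr15:4988762-5063773, GRCm38), a component of the membrane attack complex of complement. Its counts were 25, 11, 2, 7, 10 and 9 in HFD females 1 to 6, and 259, 156, 199, 211, 207 and 125 in E2 males 1 to 6. The groups did not overlap, with the lowest E2 male at 125 counts and the highest female at 25. The log2 fold change was 4.16 ± 0.31 (SE, n = 6 per group, edgeR adjusted p = 6.73e-07), and 4.25 against females 2 and 6 alone. In HFD males C7 had 161 to 336 counts and lay 4.68 above the same females on the log2 scale. E2 males were 0.53 below HFD males (edgeR adjusted p = 0.456), a small step toward a female level that remained far off.

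Sult1e1 (ENSMUSG00000029272, chr5:87575969-87591594), which attaches sulfate to estradiol and so inactivates it, had no count in any of the 6 HFD females. E2 males 1 to 6 had 12, 8, 5, 10, 47 and 16 counts, and HFD males 73, 16, 22, 15, 52 and 27. The gene had too few counts for edgeR's filter in the comparison with females. By exact permutation of the 12 animals (two-sided, log2 CPM) p was 0.00216, the smallest that 6 against 6 can give, and 0.0817 after adjustment over the listed genes below the filter. Set against 3 counts over the whole female group, the level was at least 31.7-fold higher in E2 males and at least 68.7-fold higher in HFD males. Of the 98 counts in E2 males 47 came from animal 5, and the bound for E2 males would be lower without that animal. The difference between E2 males and HFD males did not pass the exact permutation test (p = 0.0628). The start regions of both genes are shown because E2 males and HFD females did not overlap in either. They are RefSeq sequences of GRCm38.p6, 250 bases before to 50 after the start on the minus strand, at chr15:5063724-5064023 for C7 and chr5:87591562-87591861 for Sult1e1. Capitals mark AGGTCA, or its reverse complement, a core motif of many nuclear receptors.
C7: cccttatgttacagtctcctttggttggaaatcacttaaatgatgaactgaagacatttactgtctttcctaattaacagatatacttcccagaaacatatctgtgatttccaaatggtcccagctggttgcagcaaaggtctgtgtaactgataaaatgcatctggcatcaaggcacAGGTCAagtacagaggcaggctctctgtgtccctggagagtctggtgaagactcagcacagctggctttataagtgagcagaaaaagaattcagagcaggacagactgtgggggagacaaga
Sult1e1: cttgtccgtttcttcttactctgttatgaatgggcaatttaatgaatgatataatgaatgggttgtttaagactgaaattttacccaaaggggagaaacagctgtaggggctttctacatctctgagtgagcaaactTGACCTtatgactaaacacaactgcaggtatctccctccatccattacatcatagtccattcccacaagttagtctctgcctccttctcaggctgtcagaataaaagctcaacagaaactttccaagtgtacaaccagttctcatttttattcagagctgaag
The motif begins at position -72 from the start site in C7 and at -113 in Sult1e1. It occurs in 16.3% of 32851 such regions searched on both strands.

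A further 10 genes were above the female level after adjustment. Ildr2, a membrane protein of the immunoglobulin family, lay at 0.309 to 0.596 TPM in HFD females and at 0.600 to 1.42 TPM in E2 males, with no overlap. Its log2 fold change was 1.51 ± 0.21 (SE, edgeR adjusted p = 0.00204), and HFD males lay 1.17 above the females. Dpep1, a membrane dipeptidase, was 0.96 ± 0.15 higher (adjusted p = 0.00612), and Iyd, an iodotyrosine deiodinase, 0.91 ± 0.14 higher (adjusted p = 0.00612). These 3 genes and C7 kept their call whichever of the 12 libraries was left out. With the squamous covariate Ildr2, Dpep1 and Iyd lay 1.30, 0.78 and 0.84 above the females but lost the call (edgeR adjusted p = 0.227, 0.407 and 0.331), and likewise against females 2 and 6 alone (edgeR adjusted p = 0.352, 0.423 and 0.274). The others were the protease Adamts5 (0.70), fibrillin Fbn1 (0.56), nidogen Nid1 (0.50), the procollagen processing enhancer Pcolce2 (1.15), the matricellular Smoc1 (1.42), Pi16, a marker of adventitial fibroblasts (0.99), and the flavin monooxygenase Fmo2 (0.57). Each of these 7 lost the call in 5 to 10 of the 12 fits without 1 library. With the squamous covariate Adamts5, Fbn1, Nid1, Pcolce2, Smoc1, Pi16 and Fmo2 lay 0.73, 0.46, 0.54, 1.28, 1.54, 0.65 and 0.60 above the females. Against females 2 and 6 alone the values were 0.75, 0.45, 0.57, 1.27, 1.54, 0.73 and 0.60. None kept the adjusted call in either.

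Those genes did not all stand the same way in HFD males. Adamts5 was at 1.71 to 2.06 TPM in HFD females, 2.35 to 3.51 TPM in E2 males and 2.39 to 3.97 TPM in HFD males, so both groups of males lay wholly above the females. Fmo2 was likewise 0.66 above the females in HFD males (edgeR adjusted p = 0.0350), and 0.10 lower in E2 males than in HFD males (edgeR adjusted p = 0.790). Smoc1 differed from this: it was 0.08 above the females in HFD males and 1.33 higher in E2 males than in HFD males (edgeR adjusted p = 0.284). Fbn1 and Pi16, at 0.15 and 0.54 above the females in HFD males, were not past the raw threshold there. The comparisons share their female libraries, so these values are set side by side and not tested against each other.

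**Figure D2:**
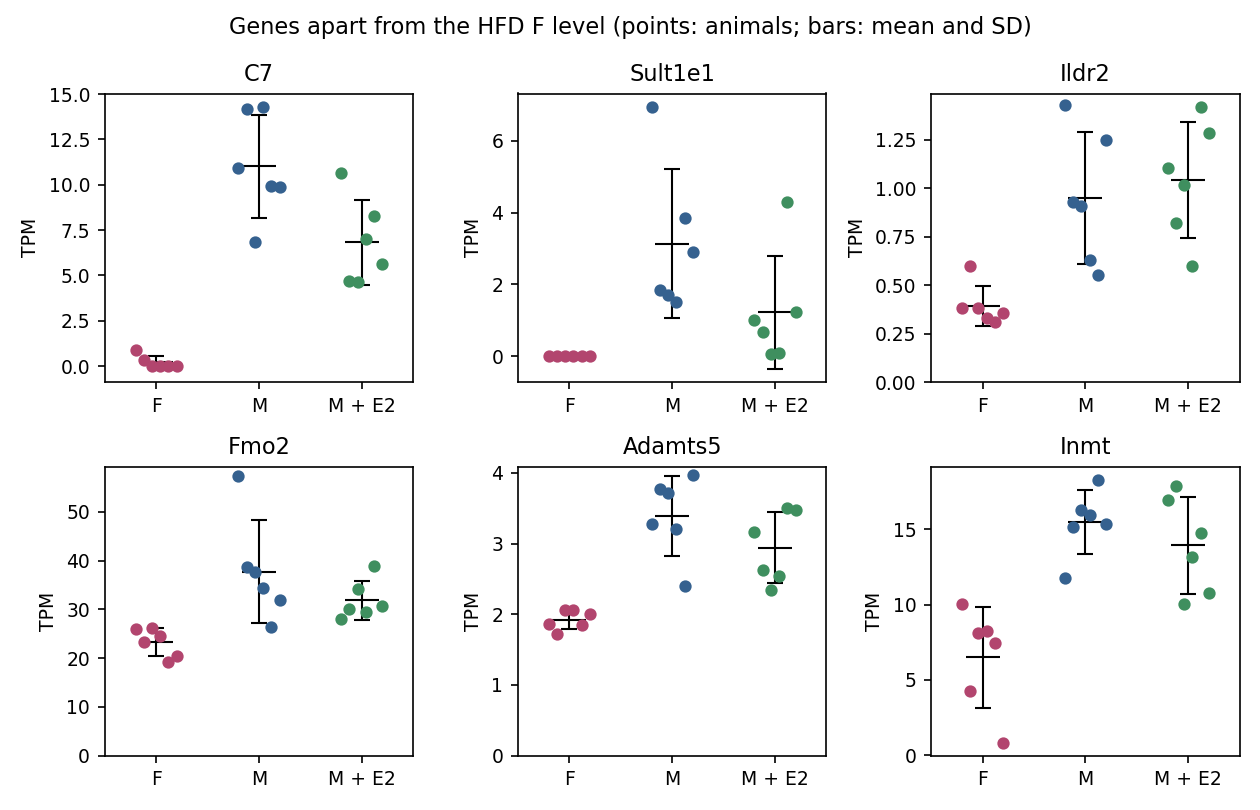
TPM of 6 genes in each HFD female (F), HFD male (M) and E2 male (M + E2), with the mean and SD of 6 animals. E2 males lie above all females in C7, at 4.62 to 10.7 TPM against at most 0.913 TPM, and in Fmo2, at 28.0 to 38.9 TPM against 19.2 to 26.1 TPM.

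After adjustment 5 genes were below the female level. Nebl, an actin-binding protein, was at 0.432 to 3.29 TPM in HFD females and 0.0844 to 0.315 TPM in E2 males, a log2 fold change of -2.28 ± 0.34 (SE, edgeR adjusted p = 0.00610). Igfbp3, which binds insulin-like growth factors, was at 12.2 to 28.2 TPM in females and 5.67 to 9.65 TPM in E2 males (-1.15 ± 0.17, edgeR adjusted p = 0.00610). The groups did not overlap in either gene. Both kept the call in all 12 fits without 1 library, while against females 2 and 6 alone the differences were -1.28 and -0.63 and the call was lost (edgeR adjusted p = 0.474 and 0.690). Slc11a2, the iron importer of the intestine, lay at 36.9 to 82.8 TPM in females and 17.4 to 31.3 TPM in E2 males (-1.07 ± 0.19, edgeR adjusted p = 0.0290). Itgb8, an integrin subunit, was 0.68 lower (edgeR adjusted p = 0.0407) and, like Slc11a2, lay lower in E2 males than in HFD males, by 0.59 and 0.55. Slc11a2 lost the call in 6 and Itgb8 in 9 of the 12 fits without 1 library, and neither passed with either squamous alternative. Their differences were -1.03 and -0.67 with the squamous covariate and -0.82 and -0.65 against females 2 and 6 alone.

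The fifth gene was Jchain, the joining chain of secreted IgA and IgM, made by plasma cells. It was at 171, 184, 68.5, 134, 62.4 and 102 TPM in HFD females 1 to 6 and at 38.5, 8.05, 24.3, 16.9, 44.6 and 10.3 TPM in E2 males. Every female lay above every E2 male, with a log2 fold change of -2.26 ± 0.37 (SE, edgeR adjusted p = 0.0365). The call was lost in 9 of the 12 fits without 1 library, with the squamous covariate (-2.44, edgeR adjusted p = 0.192) and against females 2 and 6 alone (-2.52, edgeR adjusted p = 0.244). HFD males, at 6.98 to 50.2 TPM, were 2.35 below the females and 0.08 below E2 males. Of 9 antibody constant genes tested, 4 were lower in E2 males and none higher, beside 2.71% and 1.71% of all genes. The heavy chain of IgA, Igha, was 2.07 lower (edgeR adjusted p = 0.05003, just over the threshold), and the kappa light chain Igkc 1.56 lower (edgeR adjusted p = 0.216). The summed level of 11 antibody constant genes was 678 to 1469 TPM in females, 193 to 541 TPM in E2 males and 68.7 to 469 TPM in HFD males, so both groups of males lay wholly below the females. In whole tissue, fewer plasma cells and less RNA per plasma cell cannot be told apart. The other plasma cell genes moved less: of 6 tested Jchain alone passed the raw threshold (2 genes did without female 6), and the list's median was -0.22. Ighg1 and Iglc1, the other genes that passed, each had 1 female far above the rest, with Ighg1 at 67.1 TPM in female 2 and Iglc1 at 491 TPM in female 1.

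**Figure D3:**
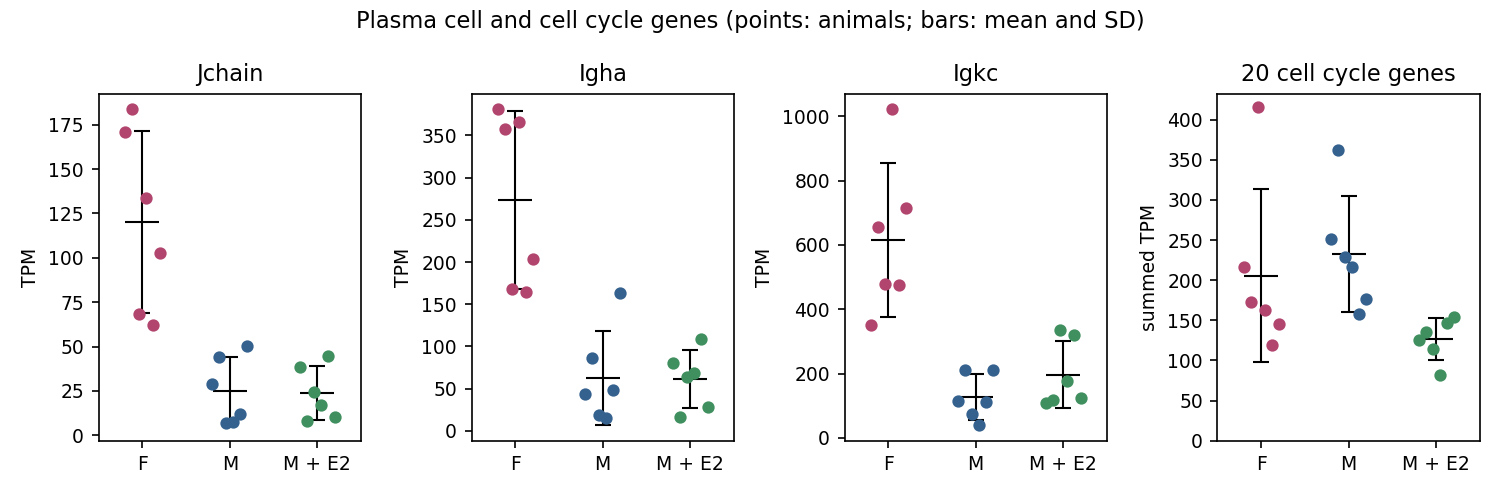
TPM of Jchain, Igha and Igkc and the summed TPM of 20 cell cycle genes in each HFD animal, with the mean and SD of 6 animals. E2 males and HFD males both lie below all females for Jchain, and the cell cycle sum spans 81.9 to 154 TPM in E2 males.

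Genes that differ between the sexes without a high-fat diet offer a list that does not rest on the HFD libraries. On CD, 388 autosomal genes passed the adjusted threshold (2.69%), 296 higher in males (2.05%) and 92 higher in females (0.637%). Of the 388, 296 (76.3%) were at the female level in E2 males, compared with 86.6% of all genes tested. That number depended on the females used, as given below. In HFD males given vehicle 298 were at the female level (76.8%, against 87.4% of all genes). By direction these were 233 male-high and 65 female-high genes, with 31 and 8 apart. CD sex genes past the raw threshold in HFD males numbered 42, but 89 with the squamous covariate and 104 against females 2 and 6 alone. In E2 males 48 stayed apart in the direction seen on CD, 9 were apart in the opposite direction, 31 had intervals too wide to place and 4 were not tested. The CD libraries chose these genes at an absolute log2 fold change over 0.4, so the CD medians are larger in size through that choice. Smaller medians on HFD are expected in part from it. Genes higher in males had a median log2 difference of 0.67 on CD, 0.15 in HFD males and 0.17 in E2 males. Genes higher in females had medians of -0.67, -0.23 and 0.01, and 4 of the 92 (4.3%) stayed apart, beside 2.71% of all genes lower, as did 44 of the 296 male-high genes (14.9%), beside 1.71% of all genes higher. The female group matters here: against females 2 and 6 alone, 114 of the male-high genes were apart with a median of 0.43, and 16 of the female-high genes with a median of -0.17. With the squamous covariate these counts were 104 and 12. With all 6 females, 220 male-high and 76 female-high genes were at the female level. These numbers were 119 and 60 against females 2 and 6 alone and 128 and 62 with the covariate.

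Of the 48 genes apart in E2 males, 22 were also apart in HFD males. Beside C7, Ildr2, Dpep1, Fmo2, Adamts5 and Nid1 they included Inmt, a methyltransferase of indole amines (1.22 in both groups of males), and the atypical chemokine receptor Ackr4 (1.29 in E2 males and 1.20 in HFD males). On the female-high side the claudin Cldn4, a tight junction protein, was 1.06 below the females in E2 males and 1.24 below in HFD males. A further 21 genes were apart in E2 males while at the female level in HFD males. Chosen from these after their values were seen, examples are fibronectin Fn1 (0.51 in E2 males, 0.00 in HFD males), collagen Col6a3 (0.52 and -0.03), Mfap4 (0.81 and 0.09), tenascin Tnxb (0.47 and 0.05) and Cilp (0.74 and 0.30). In these 5 the E2 males were also higher than HFD males, by 0.42 to 0.71. Most of the 48 had no such called step. Between E2 males and HFD males 8 of the 48 passed the raw threshold away from the females and 1 toward them, and 39 did not pass it. Of all genes tested 5.77% passed it. A smaller set of 12 genes went the other way and was apart in HFD males but at the female level in E2 males, among them the clock output factor Tef, the protein kinase A subunit Prkacb and the ubiquitin ligase Hecw2.

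**Figure D4:**
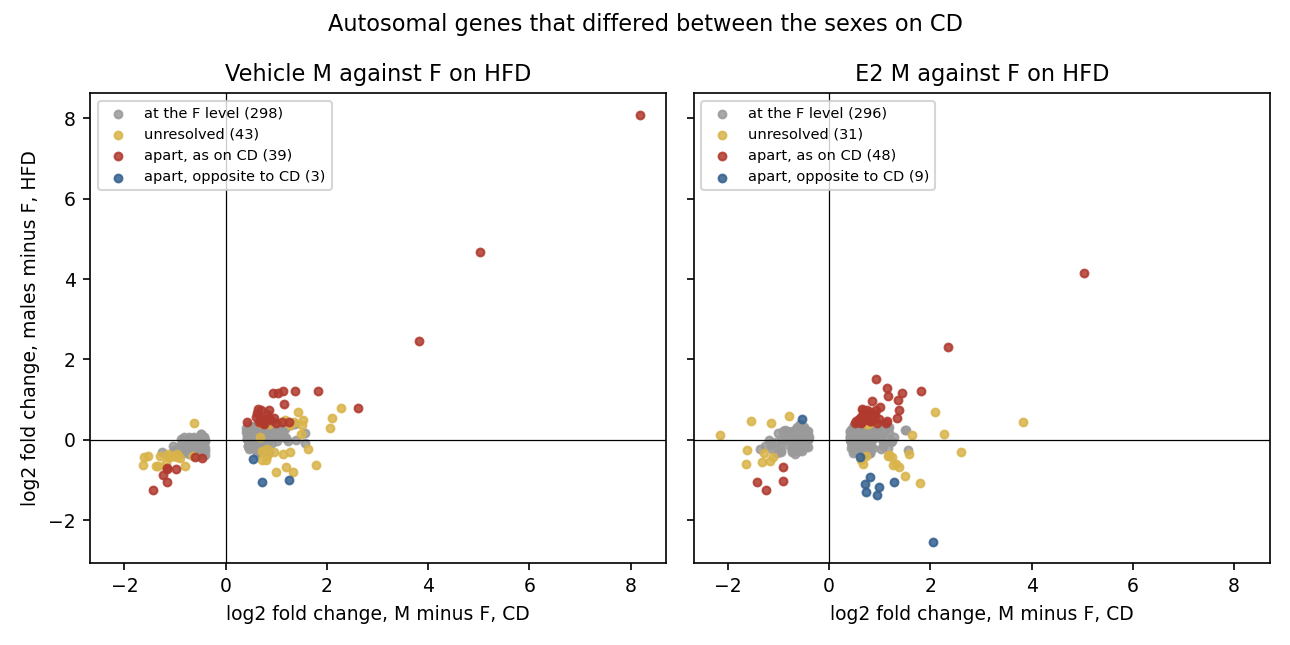
Log2 fold change of the 388 CD sex genes on CD (horizontal) against that on HFD (vertical), for vehicle males and for E2 males, each minus HFD females. Most genes lie near 0 on the vertical axis in both panels, with 48 apart in the CD direction in E2 males, of which C7 is highest at 4.16, and Sult1e1 is drawn only for vehicle males because it was not tested in E2 males.

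A further 9 CD sex genes were past the female level on the far side, 8 of 296 male-high genes (2.7%, beside 2.71% of all genes lower) and 1 of 92 female-high genes (1.1%, beside 1.71% of all genes higher). Slc10a2, the ileal bile acid transporter, was at 2.66 to 4.47 TPM in HFD females and 0.887 to 2.29 TPM in E2 males, with no overlap. It was 1.29 higher in males than in females on CD, 0.36 higher in HFD males and 1.06 ± 0.23 lower in E2 males than in HFD females (SE, edgeR adjusted p = 0.106). The acute phase protein Saa1 was lower in males on CD and 0.51 higher in E2 males than in HFD females. Emp1, Aldh1a3, Cwh43 and Cemip were among the others, and against females 2 and 6 alone no CD sex gene was past the female level by this rule, Slc10a2 included, at -0.75. With the squamous covariate 1 was, a male-high gene.

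Genes that differed between HFD males and HFD females were followed as a description, since the same libraries define the list and the comparison. Of 448 such genes (3.05%), 143 (31.9%) stayed apart in E2 males and 223 (49.8%) were at the female level, where 4.42% of all genes tested passed the threshold and 86.6% were at that level. Between HFD males and HFD females a raw p under 0.05 was reached by 741 autosomal genes, where 734.6 would be reached with no difference. Being on this list therefore does not by itself show a difference between the sexes. Of the 143, 85 were female-high, 3 of them on the squamous list, and 58 male-high. With the squamous covariate 14 of the 85 and 33 of the 58 stayed apart, and against females 2 and 6 alone 13 and 30 did. Of the 223 at the female level, 152 were female-high and 71 male-high. The numbers at that level were 127 and 52 with the squamous covariate and 123 and 48 against females 2 and 6 alone. The list itself also depended on those females, since 34.4% of its genes were higher in males, 55.5% with the covariate and 56.1% against females 2 and 6 alone. For 76 of the 223 the difference between E2 males and HFD males also passed the raw threshold, in the direction of the females. Of the 76, 53 were female-high and 23 male-high. That direction was set by the definitions of the list and of the female level, and could hardly have come out otherwise. The HFD males that chose the genes also supply the step. The direction is therefore a description only, and a move toward the females was not tested by it. In the whole comparison of E2 males with HFD males 838 genes passed that threshold (5.77%) and 1 the adjusted one (0.00688%), Spon1. The genes of the next paragraph were picked after their values were seen, among the 76 at 1 TPM or more, and are not all of those with the largest steps.

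Spon1, a secreted matrix protein of the spondin family, was at 1.76, 2.65 and 7.28 TPM (lowest, median and highest) in HFD females, 1.45, 1.96 and 2.77 TPM in HFD males and 2.92, 3.86 and 4.66 TPM in E2 males. E2 males lay wholly above HFD males, by 1.28 ± 0.15 on the log2 scale (SE, edgeR adjusted p = 0.00242). They lay within the range of the females, from whom they differed by 0.39. The top of that range was female 1 alone, with the next female at 3.68 TPM, below the highest E2 male. The lowest E2 male lay above the female median. The difference from the females had an interval from -0.20 to 0.99, and both were just inside the limits of the female level. A level of Spon1 above the females is therefore not excluded. Siglec1, a sialic acid receptor of resident macrophages, was 0.71 below the females in HFD males and 0.23 above them in E2 males. Chga, chromogranin A of enteroendocrine cells, was at 8.84 to 15.7 TPM in females, 4.56 to 12.4 TPM in HFD males and 8.22 to 14.5 TPM in E2 males. Among male-high genes Ctla2a, a cysteine protease inhibitor, was 0.64 above the females in HFD males and 0.31 below in E2 males, and overlapped in all 3 groups.

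The circadian clock runs on a loop in which Arntl (Bmal1) pairs with Clock or Npas2 to activate genes through E-boxes, and the products of period, cryptochrome and Ciart genes repress it. None of the 5 activators, 10 repressors and 6 output genes passed the raw threshold between E2 males and HFD females (4.42% of all genes did). With the squamous covariate, and against females 2 and 6 alone, 1 of the 6 outputs was higher. Arntl (ENSMUSG00000055116, chr7:113207465-113314122) was at 9.90, 10.1, 14.9, 6.43, 15.96 and 10.3 TPM in HFD females 1 to 6 and 11.8, 6.74, 22.8, 20.8, 7.14 and 16.4 TPM in E2 males. The E2 males spread more widely than the females and reached past them at the upper end only. The log2 difference was 0.42 ± 0.34 (SE, edgeR adjusted p = 0.847), while HFD males lay 0.73 below the females and E2 males 1.14 above HFD males, both past the raw threshold but not adjusted (edgeR adjusted p = 0.872 and adjusted p = 0.455). Npas2 followed with 0.20 in E2 males, -0.66 in HFD males and a step of 0.86 between the 2 groups of males (edgeR adjusted p = 0.456).

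Ciart (ENSMUSG00000038550, chr3:95878503-95882251) had the opposite order, 0.78 above the females in HFD males and 0.32 below them in E2 males (edgeR adjusted p = 0.919). The 95% intervals of Arntl and Ciart against the females ran past 1 in size, so their level could not be placed. Tef, whose protein drives clock-controlled genes through D-boxes, could: it was at 25.2 to 51.5 TPM in females, 44.6 to 57.1 TPM in HFD males and 21.6 to 55.2 TPM in E2 males, a difference of -0.03 from the females. Nr1d2 was 0.04 above the females in E2 males and 0.37 above in HFD males. The study states that all animals were killed at the same time of day, and the hour is not given in the sources used here. The start region of Ciart is shown for the E-boxes through which Arntl acts (RefSeq, GRCm38.p6, chr3:95882179-95882478, minus strand). Capitals mark the E-box CACGTG.
Ciart: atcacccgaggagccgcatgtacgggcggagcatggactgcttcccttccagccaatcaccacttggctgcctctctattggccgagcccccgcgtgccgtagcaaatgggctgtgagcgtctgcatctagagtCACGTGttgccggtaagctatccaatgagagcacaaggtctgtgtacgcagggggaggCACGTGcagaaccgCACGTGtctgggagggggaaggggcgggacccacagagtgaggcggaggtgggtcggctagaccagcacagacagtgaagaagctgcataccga
The region holds 3 copies of CACGTG, the first at position -116 from the start site, and 7.15% of all regions hold at least 1.

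Of 20 cell cycle genes tested, 8 were lower in E2 males than in HFD females at the raw threshold, beside 2.71% of all genes, and none after adjustment. All 20 had fold changes below 0, with a median of -0.59. Without female 3 the count was 2 and the median -0.25, and without E2 male 3 or E2 male 4 the count was 3, while without female 5 it was 14. Cyclin Ccnb1 was 1.11 lower, the topoisomerase Top2a 0.70 lower, the mitotic kinesin Kif11 0.83 lower and the kinase Melk 0.61 lower (edgeR adjusted p = 0.302 for Ccnb1, and no lower for the others). HFD males had a median of 0.12 against the same females, and 19 of the 20 genes were lower in E2 males than in HFD males at the raw threshold, as were 3.09% of all genes. Summed over the list, the level was 119 to 416 TPM in HFD females, highest in female 3, 81.9 to 154 TPM in E2 males and 158 to 362 TPM in HFD males. Against females 2 and 6 alone 2 of the 20 were lower, and with the squamous covariate none was, with medians of -0.23 and -0.10.

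Among steroid receptors, Esr1 was 0.86 lower and the progesterone receptor Pgr 2.43 lower in E2 males (edgeR adjusted p = 0.464 for Esr1). In both genes females 1 and 4 stood above the rest, and without either of them, or without any of E2 males 2 to 6, only 1 of the 2 passed the raw threshold. Pgr had 229 and 211 counts in females 1 and 4 and 5 to 19 in the other 4, against 5 to 34 in E2 males. Esr1 was at 7.69 and 7.08 TPM in the same 2 females and at 1.13 to 2.27 TPM in E2 males, and both genes changed sign against females 2 and 6 alone, to 0.13 and 1.10. Esr2 was 0.30 above the females in E2 males (edgeR adjusted p = 0.832) and 0.62 above in HFD males. Of 16 steroid enzymes tested 1 was higher and 2 lower, beside 1.71% and 2.71% of all genes. Hsd17b2, which oxidizes estradiol to estrone, was 0.52 higher (edgeR adjusted p = 0.383), and the synthetic enzymes Hsd17b7 and Cyp11a1 were 0.61 and 1.08 lower (edgeR adjusted p = 0.214 for Hsd17b7). Hsd17b2 was not past the raw threshold with the squamous covariate (0.26) or against females 2 and 6 alone (0.31), where no steroid enzyme was higher and 4 were lower. Without female 6, 4 were lower as well, and without female 2, 2 were higher.

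Of 23 antioxidant genes tested, 2 were higher (1.71% of all genes) and 3 lower (2.71% of all genes). Gpx3, the secreted glutathione peroxidase, was at 7.93 to 19.7 TPM in HFD females and 17.7 to 35.4 TPM in E2 males, 1.12 ± 0.25 higher (SE, edgeR adjusted p = 0.129), with HFD males at 11.04 to 20.7 TPM. Sod3, the extracellular superoxide dismutase, was 0.60 higher, and the lower genes were the quinone reductase Nqo1 (-0.44) and the glutathione transferases Gsto1 (-0.90) and Gsta4 (-1.51, but 0.09 with the squamous covariate). Without female 1 or 2 or E2 male 2, 3 or 6 the number of higher antioxidant genes was 1, and without E2 male 1 the number lower was 6. In sodium transport 4 of 16 genes were lower and none higher, beside 2.71% and 1.71% of all genes: the channel subunit Scnn1g (-0.93), its regulator Sgk1 (-0.72), the proton-potassium pump Atp12a (-0.66) and the glucocorticoid-responsive Fkbp5 (-0.45). Atp12a was also 0.84 lower in E2 males than in HFD males (edgeR adjusted p = 0.148) and 0.17 higher in HFD males than in females.

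Some stromal genes were above the female level. Smooth muscle had 4 of 15 genes higher and none lower, with the actin Actg2 (0.41), calponin Cnn1 (0.50), desmin Des (0.44) and Lmod1 (0.45), beside 1.71% of all genes higher. Without female 6 or E2 male 4 the count was 1 of 15, and without female 2 or E2 male 2 it was 2. Endothelium had 3 of 13 higher, the receptors Tek (0.64) and Tie1 (0.54) and cadherin Cdh5 (0.43), and fibroblasts and matrix 3 of 19, none of them after adjustment. Without E2 male 3 or E2 male 6 the endothelial count was 2. Against females 2 and 6 alone smooth muscle had 11 and fibroblasts 7 genes higher. The summed smooth muscle level was 3744 to 6169 TPM in females and 4706 to 8041 TPM in E2 males, overlapping widely.

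Over the 500 most variable autosomal genes, the division into E2 males and HFD females held 20.4% of the variance (pseudo-F = 2.57, exact permutation p = 0.0152). Without the squamous genes and those that follow them the division held 13.7% (exact permutation p = 0.0606). The distance to the centre of the females did not differ between the 2 groups of males beyond its spread. It was 42.7 ± 3.01 in E2 males and 41.5 ± 5.31 in HFD males (SD, n = 6 each, log2 units over 500 genes, two-sided exact permutation p = 0.630). Without the squamous genes and those that follow them E2 males were 3.53 nearer than HFD males (exact permutation p = 0.169).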

How the data were processed

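Colon RNA was depleted of ribosomal RNA (Ribo-Zero, stranded kit) and sequenced in pairs. The authors trimmed reads with Trim Galore, mapped them to GRCm38 (mm10) with STAR, and deposited raw counts per gene from featureCounts and TPM per gene and library from StringTie. Base calls came from bcl2fastq 2.19.1.403 in the submitters' processing notes, and the other versions are not given in the sources used here. TPM could be 0 where counts were low, as for C7 in females. Counts of HFD females and E2 males were filtered (filterByExpr), scaled (TMM) and tested with edgeR 4.0.16 quasi-likelihood F tests in R 4.3.3, fitted on all genes, with p-values adjusted over all genes tested, sex chromosomes included, and called genes counted on the autosomes. HFD males against HFD females, E2 males against HFD males and CD males against CD females were fitted likewise. The study ran DESeq2, estimated an FDR by the Benjamini-Hochberg procedure and set its limit on a p value. It did not state whether that p was adjusted, so calls at raw p are given beside adjusted ones. DESeq2 1.42.0 was an alternative. Distances used log2 CPM. The animals were separate replicates, and the depth of 9064697 to 17243712 counts a library limits genes with few counts. Simulated 2-fold changes in this comparison were called for 140 of 194 genes, with 12 unchanged genes called, among 15235 genes. Genes named were those of the adjusted calls (up to 10 in each direction at 1 TPM or more without overlap), those past the adjusted threshold between HFD males and females, the 10 largest CD sex genes in each direction, and genes of 35 lists (clock, steroid and study-named genes, otherwise up to 4 with the smallest p). Spon1, Siglec1, Chga, Ctla2a, Prkacb and the CD sex genes named beyond that rule were chosen after their values were seen. Members, lists and tests were chosen with earlier results of these data known. RefSeq start regions matched 150 of 210 named genes.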

Additional observations from a re-analysis of the deposited data

Results flagged for a closer look

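In 24 of 178 groups of 6 values checked, 1 animal stood far from the other 5 (Dixon's test of the gap over the range). Chance gives about 1 in 20 for independent values that follow a normal distribution. Most values here are TPM, which can be skewed and are related across genes, so the count is a description only. Female 1 was high for Bhlhe41 (1.74 TPM), Cry1 (5.26 TPM), Cry2 (21.0 TPM), Iglc1 (491 TPM) and Spon1 (7.28 TPM). Female 2 was high for Hao2 (138 TPM), Ighg1 (67.1 TPM), Ildr2 (0.596 TPM) and Insl5 (53.0 TPM). Female 3 was high for Melk (10.5 TPM), Mki67 (91.3 TPM) and Sprr1a (165 TPM), female 4 for Krt14 (504 TPM) and female 5 for Slc11a2 (82.8 TPM). Among E2 males, animal 1 was high for Cry1 (5.53 TPM) and Kcnh6 (3.94 TPM), and animal 2 was low for Itgb8 (1.01 TPM) and far from the females in distance (48.6). Animal 3 had the most counts (17243712). Animal 4 was low for Melk (1.22 TPM) and high for Mybpc1 (15.3 TPM) and Pou5f2 (3.46 TPM), and animal 5 was high for Dbp (61.2 TPM) and Sult1e1 (4.295 TPM).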

How the results depend on the processing

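The number of genes past the raw threshold (650) was 1159 with DESeq2, 1769 with no filter on low counts, 1065 with no fold change minimum, and 536 to 992 when 1 library was left out, highest without E2 male 1. The number past the adjusted threshold (16) was 255 with DESeq2, 25 with no filter, 108 with 30 libraries in one fit, 49 with smooth muscle and 2 with squamous epithelium as a covariate, 4 against females 2 and 6 alone and 7 with p adjusted over autosomal genes alone (both chosen after seeing the data), and 7 to 25 when 1 library was left out. Of the 16, C7 alone was shared with either squamous alternative. Over autosomal genes alone, 378 of the 388 CD sex genes were called. CD sex genes past the raw threshold (57) were 117 with the squamous covariate, 130 against females 2 and 6 alone, 93 with no fold change minimum, and 48 to 65 when 1 library was left out. The share of variance was 13.6% over all autosomal genes (exact permutation p = 0.0649), 13.7% without squamous genes (p = 0.0606, exact permutation) and 18.2% to 29.9% when 1 library was left out. The difference in distance was -3.53 without squamous genes and -0.16 on variance stabilized values, and ranged from -1.22 to 4.71 when 1 library was left out, with -1.22 without female 1, -0.84 without female 3 and -0.10 without HFD male 2. Causes were not tested.

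Signs turned for Esr1 (0.17 with the squamous covariate and 0.13 against females 2 and 6 alone), Anxa1 (0.0909 and 0.0119), Pgr (1.29 and 1.10), Krt14 (0.60 and 0.30), Car3 (0.52 and 0.46), Sprr1a (0.20 against females 2 and 6), and Me1 (0.0014) and Gsta4 (0.0925) with the covariate. Of 5223 repeats over 202 genes, 4799 kept direction and side of the threshold. Replicate numbers do not pair the animals (correlations of same-numbered deviations from -0.156 to 0.294), and the fit with the number as a block gave 623 genes past the raw threshold, 15 past the adjusted one, 10 of them shared with the 16, and 56 CD sex genes. Depth limits genes with few counts, such as Sult1e1.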

Other observations

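Some lists had no gene, or single genes, past the raw threshold, which 4.42% of all genes passed (1.71% higher and 2.71% lower). Of 10 enteroendocrine genes none passed, with a median of 0.09, against -0.30 in HFD males, and 2 were higher without E2 male 1. With the squamous covariate and against females 2 and 6 alone 1 was lower, with medians of -0.07 in both. Chgb was 0.52 above the females (edgeR adjusted p = 0.701) and 0.81 above HFD males (edgeR adjusted p = 0.455). Of 10 goblet cell genes 1 was higher, Spink4 (0.66), and the list's median of 0.15 turned to -0.15 with the squamous covariate and -0.12 against females 2 and 6 alone, with none higher and 1 lower in each. None was higher without female 1, 3, 4 or 5 or E2 male 2 or 3, 2 were without female 6 or E2 male 4, and 3 without E2 male 1. The mucin Muc2 was 0.39 above the females and 0.52 above HFD males (edgeR adjusted p = 0.455). Interferon response, endoplasmic reticulum stress, immediate early and crypt stem cell genes had none past the raw threshold, with medians of 0.05, 0.00, 0.06 and -0.03, and at most 1 in each direction when 1 library was left out.

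Cholesterol synthesis genes had none of 17 past the raw threshold, with 16 of 17 below 0 and a median of -0.29. Without E2 male 6, 7 were lower, with the squamous covariate 3 and against females 2 and 6 alone 2. Of 17 macrophage and monocyte genes 2 were higher, Cd163 (0.64) and C1qb (0.51), and 2 lower, Cx3cr1 (-0.52) and Ly6c2. The number higher was 1 without female 1 or 2 or E2 male 2, 3 or 6, and 4 without E2 male 1 or 5, and the number lower was 1 without female 2. Of 18 complement and acute phase genes 3 were higher, C7, C1qb and C3 (0.44), and none lower. That count was 1 without E2 male 2 or 6, 5 without E2 male 5, and 1 with the squamous covariate. Ly6c2, a surface antigen of monocytes, was 2.60 below the females in HFD males (edgeR adjusted p = 0.00210) and 1.24 below in E2 males, 1.35 above HFD males. Nos2, the inducible nitric oxide synthase, was 1.35 lower in E2 males, with 3 to 30 counts in females and 0 to 12 in E2 males. Of 40 genes that the study names, a list chosen on these samples and so not independent, 2 were higher and 7 lower in E2 males (1.71% and 2.71% of all genes), with a median of -0.08. The number higher was 1 without female 1 or 2 or E2 male 2, 3 or 6.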
